A study of Mus musculus with 2 samples.

Results

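The genes for the proteins of the mitochondrial ribosome were compared between B16 and B16/BL6 mouse melanoma cells by RNA sequencing. B16 cells derive from a melanoma of the C57BL/6 strain, and B16/BL6 cells are a subline of B16 selected for invasion. Both lines carry the strain label C57BL/6, and neither has a treatment in the labels. The genes were chosen by symbol alone, as the rows named Mrpl or Mrps followed by a number and at most 1 letter. This rule found 76 of the 23284 symbols in the files. Each line had 1 library, hence no value has a replicate error and no difference between the lines was tested. B16 was grown in DMEM and B16/BL6 in RPMI, each with 10% FBS and 1% penicillin/streptomycin. Effects of line and of medium cannot be told apart.

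The mitochondrial ribosome, or mitoribosome, translates the few proteins that mitochondrial DNA encodes, all of them subunits of the respiratory chain and ATP synthase. All of its proteins are encoded in the nucleus, made in the cytosol and imported, while its ribosomal RNAs come from mitochondrial DNA. Some of the proteins have counterparts in bacterial ribosomes, and others are found only in mitochondria. Assembly needs each protein in a fixed proportion to the others. The symbols do not always give the subunit: the proteins of Mrps30 and Mrps18a sit in the large subunit, and that of Mrps36 is now known as a part of the oxoglutarate dehydrogenase complex. By protein position, 49 genes belonged to the large subunit, 26 to the small subunit and 1, Mrps36, to neither.

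Expression was deposited as FPKM, that is, fragments per kilobase of transcript in proportion to the library's fragments, so levels can be set side by side between genes. A rough estimate from the lowest values put the libraries at 10071710 fragments in B16 and 11046296 in B16/BL6. On that estimate a mitochondrial ribosomal protein gene rested on a median of 843 fragments in B16. The 7 melanocytic markers examined were all at 1 FPKM or more in both libraries. B16/BL6 exceeded B16 by 1.5-fold or more for 4 of them, and the median difference of the 7 on the log2 scale used below was 0.61. The largest difference was that of Tyr, the first enzyme of melanin synthesis, at 10.6 FPKM in B16 against 164 FPKM in B16/BL6. Pmel, a fibre protein of the melanosome, was at 2166 and 4651 FPKM, and Mlana, a melanosomal protein, at 3789 and 6160 FPKM. Tyrp1 differed by 0.12, and Sox10 and Mitf were lower in B16/BL6, with differences of -0.23 and -0.097. The part of pigment cell state in the results below was not tested. Of 10 markers of blood, endothelial, fibroblast and keratinocyte cells, 1 reached 1 FPKM: Cd68, at 2.83 FPKM in B16 against 1.23 FPKM in B16/BL6. Of the other nine, 7 were listed at 0 in both libraries (Cd3e, Cdh5, Col3a1, Dcn, Lum, Krt5 and Krt14).

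Most mitochondrial ribosomal protein genes were expressed at moderate levels in both lines. Of the 76 genes, 75 reached 1 FPKM in at least 1 library, and 64 lay between 10 and 150 FPKM in both. Their median level was 54.5 FPKM in B16 against 47.4 FPKM in B16/BL6. Over all 10709 genes that reached 1 FPKM, the median level was 14.7 and 14.6 FPKM. The summed level of the 76 genes was 5468 FPKM in B16 against 5867 FPKM in B16/BL6, a ratio of 1.07. That sum made up 1.09% of the FPKM of the B16 library and 1.04% of that of B16/BL6.

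The highest level in B16 belonged to Mrpl12, whose protein forms the flexible stalk that recruits translation factors and which is also known to bind the mitochondrial RNA polymerase. It stood at 332 FPKM in B16 against 298 FPKM in B16/BL6. Mrps21, a small-subunit gene, was at 228 and 223 FPKM. Mrpl53 was at 226 FPKM in B16 against 274 FPKM in B16/BL6, and Mrpl13 at 219 and 220 FPKM. Mrpl13 is an abundant gene whose values in the lines were nearly identical. Mrpl53 is uncertain, since the annotated transcript Gm42688 is 100% identical to it over its whole length and shares 88.0% of its exon bases on the same strand. Mrpl52 was at 195 FPKM in B16 against 305 FPKM in B16/BL6, and was thus the highest of the genes in B16/BL6, above Mrpl12. Its transcript of 418 bases is the shortest among the genes that reached 1 FPKM. The FPKM of short transcripts depends on processing choices that were not given, so this rank is uncertain.

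At the low end, Mrpl1, whose protein forms the stalk opposite to that of Mrpl12, was at 8.24 FPKM in B16 against 7.86 FPKM in B16/BL6. Mrps33 was at 10.1 and 10.7 FPKM, and Mrpl41 at 11.8 and 13.5 FPKM. Mrpl17, a protein near the exit of the peptide tunnel, was at 13.4 FPKM in B16 against 12.6 FPKM in B16/BL6. Each of these low genes kept nearly the same level in both lines. Mrps36 stood far below, at 1.62 FPKM in B16 against 1.31 FPKM in B16/BL6, which is about 11 and 10 fragments. Mrpl23, another exit-tunnel protein, was listed at 0 in B16 and at 0.219 FPKM in B16/BL6, the latter about 2 fragments. A processed pseudogene, Mrpl23-ps1, is 100% identical to the Mrpl23 transcript over 78% of its length, and the sources used here do not say how reads that match both were assigned. With Mrpl23 and Mrps36 left out, the highest level in B16 was 40.3 times the lowest.

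**Figure D1:**
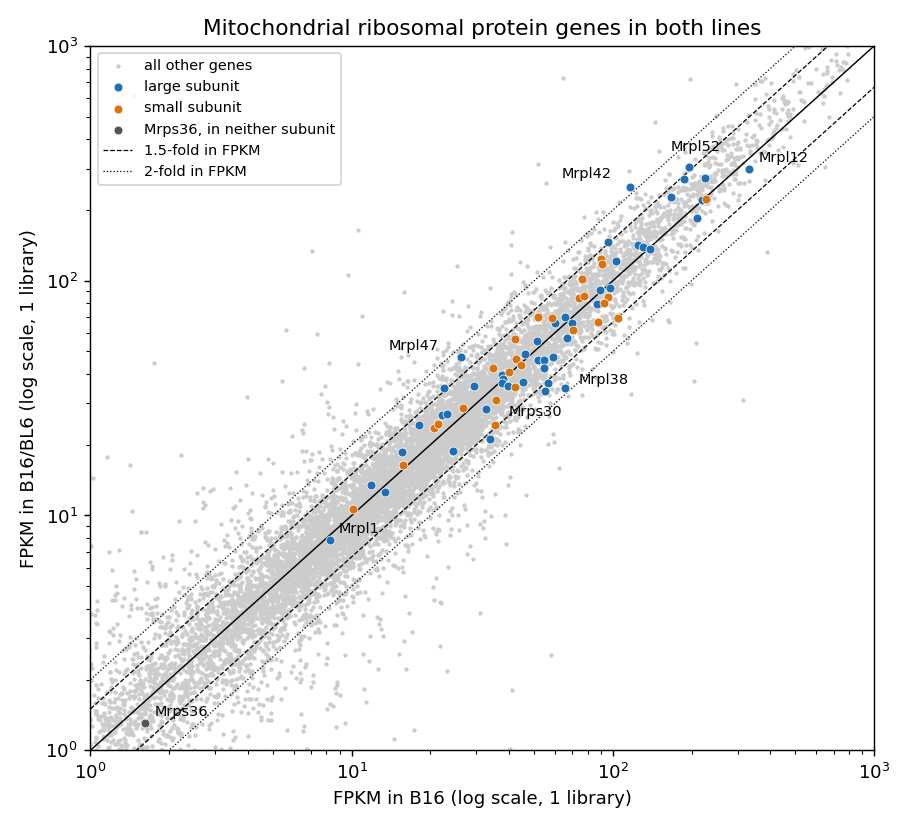
FPKM of each gene in B16 (x axis) and B16/BL6 (y axis), both on log scales from 1 to 1000, with 1 library per line. Coloured points are mitochondrial ribosomal protein genes and grey points are other genes that reached 1 FPKM in either library and lie inside the axes. The coloured points follow the diagonal, 64 of them between 10 and 150 FPKM in both lines, and Mrpl42 alone passes the upper 2-fold line.

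The difference of a gene is given as log2(FPKM + 1) in B16/BL6 minus log2(FPKM + 1) in B16, on which scale 2-fold is 1. It understates the change of low genes. Of the 75 genes at 1 FPKM or more, 41 had a difference above 0 and 34 below 0. The median difference was 0.023, beside 0.0053 over all 10709 genes, and the quartiles were -0.18 and 0.24. On a TPM scale, where each library sums to 1000000, the median of the 75 genes turned to -0.15, beside -0.16 over all genes. In bulk samples, less RNA per cell and fewer cells of a type cannot be told apart.

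Only 1 of the 75 genes, Mrpl42, exceeded its B16 level by 2-fold or more, and 0 were at least 2-fold lower. Over all genes tested, 3.31% were at least 2-fold higher and 3.16% at least 2-fold lower. At 1.5-fold, 5 genes were higher and 5 lower, which is 6.67% in each direction. Over all genes 9.38% were at least 1.5-fold higher and 8.56% lower. Among the 6532 genes that averaged 10 FPKM or more, a level nearer to that of the mitochondrial ribosomal protein genes, the shares were 8.16% and 5.74%. The counts were therefore near the background in each direction. The other 65 genes, 86.7%, differed by less than 1.5-fold, beside 86.1% of the genes averaging 10 FPKM or more. In FPKM, 22 genes of the rule were within 10% of their B16 value.

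The standard deviation of the differences was 0.36 over the 75 genes and 0.66 over the genes averaging 10 FPKM or more. The latter value includes genes listed at 0 in 1 library and differences from -11.9 to 10.6. The quartiles lay close together, at -0.18 and 0.24 over the 75 genes and -0.20 and 0.27 over the genes averaging 10 FPKM or more. The rank correlation of FPKM between the libraries was 0.943 over the 75 genes and 0.947 over all genes, as a description across genes that share both libraries.

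**Figure D2:**
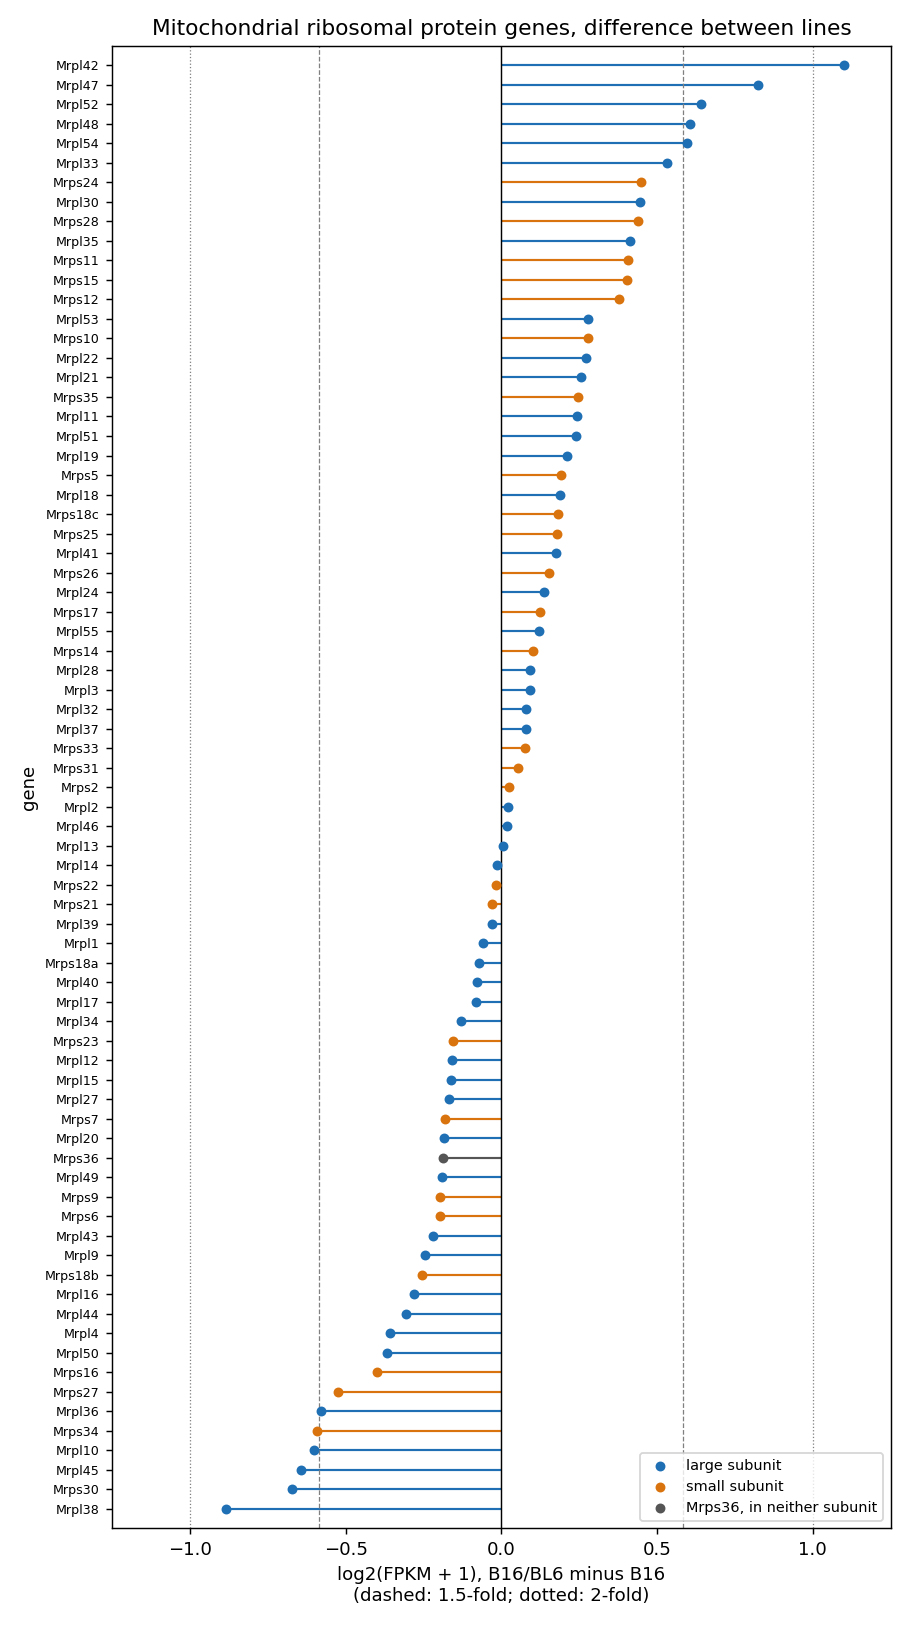
Difference of each of the 75 genes at 1 FPKM or more, as log2(FPKM + 1) in B16/BL6 minus B16 (x axis), sorted by value, from 1 library per line. Dashed lines mark 1.5-fold and dotted lines 2-fold; 5 genes lie past 1.5-fold on each side, from Mrpl42 at 1.10 to Mrpl38 at -0.88.

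The gene with the largest difference was Mrpl42 (chr10:95480805-95501949, minus strand, mm10), which encodes a large-subunit protein without a bacterial counterpart. Its level was 116 FPKM in B16 against 251 FPKM in B16/BL6, a difference of 1.10 on the log2 scale and a ratio of 2.15. A processed pseudogene, Gm6419, is 96.3% identical to 64% of the Mrpl42 transcript, so the value is uncertain to the extent that reads were shared between them. Mrpl47 (chr3:32727497-32736755, minus strand), a protein at the peptide exit, was at 26.2 FPKM in B16 against 47.1 FPKM in B16/BL6, a difference of 0.82. Mrpl52 (chr14:54426909-54429750, plus strand) had a difference of 0.64.

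The other two genes past 1.5-fold in this direction were Mrpl48 and Mrpl54, both of the large subunit. Mrpl48 (chr7:100545779-100608301, minus strand) encodes a protein of the central protuberance, the crest of the large subunit that faces the small-subunit head. Its level was 22.6 FPKM in B16 against 34.9 FPKM in B16/BL6, a difference of 0.61. Mrpl54 (chr10:81264722-81266926, minus strand) was at 95.9 and 146 FPKM, a difference of 0.60. Just inside the 1.5-fold line were Mrpl33, at 186 FPKM in B16 against 270 FPKM in B16/BL6, and Mrpl30, at 167 and 228 FPKM. Mrpl30 has 4 near-identical processed pseudogenes. All 5 genes past the line encode large-subunit proteins, as do 48 of the 75 measured genes. Of the 5, 4 encode proteins specific to mitochondria, as do 19 of the 48, and 3 of those 19 lay past 1.5-fold lower. Transcripts of Mrpl42, Mrpl52 and Mrpl54 have 666, 418 and 604 bases, and those of Mrpl47 and Mrpl48 have 3364 and 4285. Below 700 bases the median difference of 199 other coding genes was 0.16. The part of transcript length in these differences was not tested.

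In the other direction the largest difference was that of Mrpl38 (chr11:116131817-116138868, minus strand), a second protein of the central protuberance. Its level was 65.3 FPKM in B16 against 34.9 FPKM in B16/BL6, a difference of -0.88, or 1.87 times higher in B16. Mrps30 (chr13:118380110-118387252, minus strand), a large-subunit protein in spite of its symbol, was at 54.8 FPKM in B16 against 34.0 FPKM in B16/BL6, a difference of -0.67. Mrpl45 (chr11:97314923-97329920, plus strand), which holds the tunnel exit against the inner membrane, was at 33.8 and 21.3 FPKM, a difference of -0.64. Mrpl10 (chr11:97041582-97049213, plus strand), the base on which the copies of the Mrpl12 protein sit, was at 56.3 FPKM in B16 against 36.7 FPKM in B16/BL6, a difference of -0.60. These 4 genes all encode large-subunit proteins, as do 48 of the 75 measured genes.

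Mrps34 (chr17:24895120-24896289, plus strand) was the only small-subunit gene past 1.5-fold, at 105 FPKM in B16 against 69.1 FPKM in B16/BL6, a difference of -0.59. Its exons share 763 bases, 37.0% of its exon bases, with Nme3 on the same strand, and 63.4% with Mapk8ip3 on the opposite strand. Nme3 was at 16.6 FPKM in B16 against 3.83 FPKM in B16/BL6, a difference of -1.86. The value of Mrps34 is therefore uncertain, and the part of the shared exons in it was not tested. Mrpl36, a small protein conserved from bacteria, was just short of 1.5-fold at 104 FPKM in B16 against 69.3 FPKM in B16/BL6, a difference of -0.58. Mrps27 (chr13:99344767-99415562, plus strand) was at 35.3 and 24.2 FPKM, a difference of -0.52, and Mrps16, of the small-subunit body, at 88.1 and 66.5 FPKM, a difference of -0.40.

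By subunit, the 48 large-subunit genes at 1 FPKM or more had a median difference of 0.011, with 25 above 0, 5 past 1.5-fold higher and 4 lower. In shares that is 10.4% and 8.33%, beside 9.38% and 8.56% of all genes and 8.16% and 5.74% of those averaging 10 FPKM or more. The 26 small-subunit genes had a median of 0.089, with 16 above 0, none past 1.5-fold higher and 1 (3.85%) lower. The summed level of the large-subunit genes was 3857 FPKM in B16 against 4202 FPKM in B16/BL6, a ratio of 1.09, and that of the small-subunit genes 1609 and 1663 FPKM, a ratio of 1.03. The standard deviation of the differences was 0.39 in the large and 0.29 in the small subunit. Both subunits thus had summed levels within 10% between the lines and medians close to 0, which turned to -0.16 (large) and -0.07 (small) on a TPM scale.

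The genes were also split by whether the protein has a bacterial counterpart. In the large subunit, the 29 measured genes with one had a median difference of 0.020, with 1 past 1.5-fold higher (Mrpl47) and 1 lower (Mrpl10). The 19 mitochondria-specific genes had a median of -0.031, with 4 past 1.5-fold higher (Mrpl42, Mrpl52, Mrpl48 and Mrpl54) and 3 lower (Mrpl38, Mrps30 and Mrpl45). Their standard deviation was 0.50, against 0.31 for the genes with a bacterial counterpart. These counts are 21.1% higher and 15.8% lower, beside 8.16% and 5.74% of all genes averaging 10 FPKM or more, and centring by chromosome left Mrpl42 and Mrpl38 past 1.5-fold. In the small subunit, the 16 genes with a bacterial counterpart had a median of 0.15, with 11 above 0 and none past 1.5-fold. The 10 mitochondria-specific small-subunit genes had a median of 0.017, with 5 above 0, and a summed level of 505 FPKM in B16 against 465 FPKM in B16/BL6. On a TPM scale all 4 medians were below 0, from -0.20 to -0.016, and centring by chromosome turned those of the mitochondria-specific genes to 0.00062 (large) and -0.030 (small).

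Within structural parts of the ribosome, neighbouring proteins had genes on opposite sides of 0. In the stalk, Mrpl10 and Mrpl12 had differences of -0.60 and -0.16, and Mrpl11, the stalk base, 0.24, at 15.6 FPKM in B16 against 18.6 FPKM in B16/BL6. Their summed level was 404 FPKM in B16 against 353 FPKM in B16/BL6. Around the peptide exit tunnel, Mrpl47 and Mrpl45 lay past 1.5-fold in opposite directions, and the median over the 5 measured genes was 0.14, which turned to -0.030 on a TPM scale and -0.018 centred by chromosome. In the central protuberance, Mrpl48 and Mrpl38 did the same, and the median over 7 genes was 0.016, which turned to -0.15 and -0.037 in the same way. The 8 genes of the small-subunit head had a median of 0.089 (-0.074 on a TPM scale), with 6 above 0 and none past 1.5-fold. Among them was Mrps24, at 90.01 FPKM in B16 against 123 FPKM in B16/BL6, the largest positive difference of any small-subunit gene (0.45). Mrps12, the decoding-centre protein known from streptomycin resistance in bacteria, was at 90.8 and 118 FPKM, a difference of 0.38.

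The 3 genes of the Mrps18 family encode related proteins that occupy separate places in the ribosome. Mrps18c, the counterpart of the bacterial protein, was at 74.3 FPKM in B16 against 84.3 FPKM in B16/BL6, a difference of 0.18. Mrps18a, in the large subunit, was at 97.8 and 93.0 FPKM, a difference of -0.07. Mrps18b, in the small subunit, was at 42.2 and 35.3 FPKM, a difference of -0.25. All 3 differed by less than 1.5-fold. Mrps18c has 2 near-identical processed pseudogenes, and Mrps18b is matched by the antisense transcript Gm16279 over 59% of its length.

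Gene position went with the difference in part. The genes lay on 17 chromosomes, and the median difference of all expressed genes varied between chromosomes, from -0.32 on chromosome 13 to 0.41 on chromosome 10. Both genes of the rule on chromosome 10, Mrpl42 and Mrpl54, were among the 5 past 1.5-fold higher. On chromosome 13, 4 of 5 genes were below 0, with a median of -0.52 (Mrps30, Mrpl36, Mrps27 and Mrps36). The fifth, Mrpl32, was at 37.5 FPKM in B16 against 39.7 FPKM in B16/BL6, a difference of 0.08. All 7 genes on chromosome 6 were above 0, from 0.077 to 0.41, where the median of all genes was 0.18. Chromosome 11 held the most genes of the rule, 10, with 3 above 0, from Mrpl38 at -0.88 to Mrps24 at 0.45, and a median over all its genes of -0.098.

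Of the 75 genes, 47 had the sign of their chromosome's median. By the definition of a median, at least as many genes of any chromosome have that sign as do not. The share over all genes was not computed. Across the 75 genes the difference and the chromosome median had a Pearson correlation of 0.588 and a Spearman correlation of 0.492, given as a description, since genes of a chromosome share its median. Subtracting the chromosome median lowered the standard deviation of the differences from 0.36 to 0.30. It brought Mrpl42 to 0.69, Mrpl54 to 0.19 and Mrps30 to -0.35, and left Mrpl42, Mrpl47 and Mrpl38 past 1.5-fold, 0 genes past 2-fold. The high values of chromosome 10 were known from earlier work on these files and are no independent finding.

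**Figure D3:**
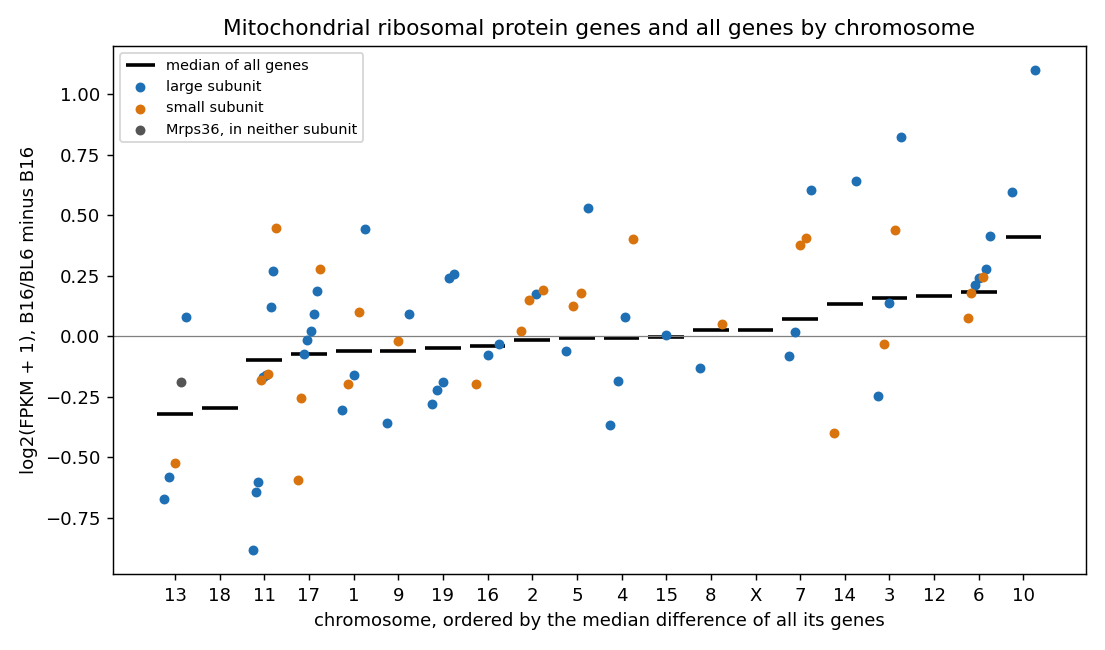
Difference of each of the 75 genes, as log2(FPKM + 1) in B16/BL6 minus B16 (y axis), by chromosome (x axis), with 1 library per line. Black bars are the median over all expressed genes of each chromosome, which order the axis from -0.32 (chromosome 13) to 0.41 (chromosome 10); the 7 genes on chromosome 6 and the 2 on chromosome 10 are all above 0.

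Many mitochondrial ribosomal protein genes begin close to another gene read in the opposite direction. Of the 75 genes, 22 (29.3%) had such a neighbour with its start within 1000 bases in GENCODE M21, beside 1385 of 10329 expressed coding genes (13.4%). In 20 pairs both genes were at 1 FPKM or more. In 17 of them both differences had the same sign, and in 8 they differed by less than 0.2. The same-sign share over divergent pairs of all genes was not computed. Some of the differences were near 0, and some pairs share exon bases. Their Spearman correlation over the 20 pairs was 0.483, as a description, since the genes of a pair share their place in the genome.

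The pair with the largest differences was Mrpl47 and Ndufb5, a subunit of respiratory complex I. Ndufb5 was at 105 FPKM in B16 against 171 FPKM in B16/BL6, a difference of 0.70 beside 0.82 for Mrpl47. The starts of this pair overlap by 157 bases, and the genes share 616 exon bases, 13.9% of those of Mrpl47, on opposite strands. A further 452 exon bases of Mrpl47 are shared with Actl6a on the opposite strand, at 61.0 FPKM in B16 against 80.3 FPKM in B16/BL6, a difference of 0.39. The sources used here do not say whether strand was used in counting. Ptcd2, a pentatricopeptide-repeat protein of mitochondrial RNA, starts 81 bases from Mrps27 and was at 29.9 FPKM in B16 against 19.1 FPKM in B16/BL6, a difference of -0.62 beside -0.52 for Mrps27. Mrps11 and Mrpl46, both genes of the ribosome, start 30 bases apart on chromosome 7. Mrps11 was at 42.2 FPKM in B16 against 56.2 FPKM in B16/BL6, a difference of 0.41, and Mrpl46 at 37.8 and 38.3 FPKM, a difference of 0.016. A shared start region therefore did not come with equal differences in this pair. Mrpl30 and Mitd1 went in opposite directions, with Mitd1 at 15.97 FPKM in B16 against 10.8 FPKM in B16/BL6 (a difference of -0.53, beside 0.45 for Mrpl30).

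**Figure D4:**
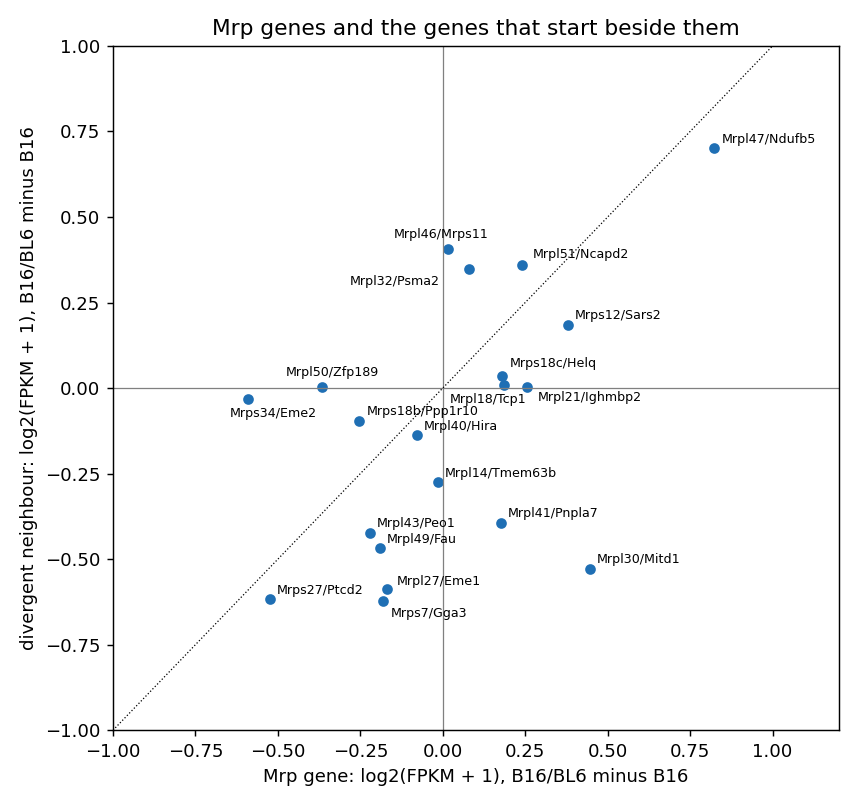
Difference of 20 mitochondrial ribosomal protein genes (x axis) and of the gene that starts within 1000 bases on the opposite strand (y axis), each as log2(FPKM + 1) in B16/BL6 minus B16, from 1 library per line. The dotted line marks equal differences; 17 of the 20 pairs lie at the lower left or upper right, where both genes have the same sign. The same-sign share over divergent pairs of all genes was not computed, and some pairs share exon bases.

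The start regions are shown for 4 genes on which these results turn: Mrps11, whose upstream bases it shares with Mrpl46, Mrpl42 and Mrpl52 from the high end, and Mrps27 from the low end. Sequences are from RefSeq on GRCm38.p6, the assembly that mm10 names, read 5′ to 3′ in the direction of the gene and limited to upstream bases in no GENCODE M21 exon and outside the RefSeq span of the gene. Capitals mark CTTCCGG, the reverse complement of CCGGAAG, the core bound by ETS factors such as the GABP complex.
Mrps11 to Mrpl46 gap, chr7:78783090-78783118, plus strand: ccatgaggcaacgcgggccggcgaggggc
Mrpl42, chr10:95501950-95502099, minus strand: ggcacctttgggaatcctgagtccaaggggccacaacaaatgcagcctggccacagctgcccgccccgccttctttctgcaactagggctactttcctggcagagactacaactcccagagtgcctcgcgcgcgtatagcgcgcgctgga
Mrpl52, chr14:54426759-54426908, plus strand: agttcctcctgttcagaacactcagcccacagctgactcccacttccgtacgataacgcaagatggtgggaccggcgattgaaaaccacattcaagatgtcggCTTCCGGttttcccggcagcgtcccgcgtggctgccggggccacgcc
Mrps27, chr13:99344706-99344766, plus strand: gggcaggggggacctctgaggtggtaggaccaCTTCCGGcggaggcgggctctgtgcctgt
The ETS letters begin 47 bases before the start of Mrpl52 and 48 bases before that of Mrps27, genes whose differences had opposite signs. Distances are counted from the start in the RefSeq table of start regions, which for Mrps27 lies 19 bases inside the span given above.

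A start region of 250 bases before to 50 after the start was found for 67 of the 76 genes, and 66 of these genes were at 1 FPKM or more. The 9 genes without a region, which could not be searched, included Mrpl38, Mrps34 and Mrpl54, all past 1.5-fold. The letters CCGGAAG, on either strand, were in 23 of the 66 (34.8%), beside 20.5% of 8625 expressed genes and 9.12% of all 27025 regions in the table. AAGATGGCG, the core bound by YY1, was in 8 of the 66 (12.1%), beside 3.72% of expressed genes and 1.49% of all regions. The palindromic NRF1 core, given here by name alone, was in 3 (4.55%), beside 2.28% and 0.977%. The E-box CACGTG, bound by MYC and MITF, was in 5 (7.58%), beside 10.9% and 7.24%, and TATAAA in 4 (6.06%), beside 6.25% and 14.2%. No match overlapped another in these 66 regions. A match is a description of the letters only, and no enrichment was tested.

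The 8 matches to the YY1 letters are shown with 10 bases on each side where the region reaches that far, because 6 of them lie after the start and read in the direction of the gene. Capitals mark AAGATGGCG or, on the reverse strand, CGCCATCTT.
Mrpl35, chr6:71823743-71823771, minus strand: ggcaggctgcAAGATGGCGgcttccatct
Mrpl37, chr4:107066822-107066850, minus strand: tgcacgggcaAAGATGGCGgcgtccaggt
Mrpl42, chr10:95501904-95501932, minus strand: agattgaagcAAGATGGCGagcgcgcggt
Mrps18a, chr17:46111005-46111033, plus strand: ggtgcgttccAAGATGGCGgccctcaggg
Mrps24, chr11:5707652-5707675, minus strand: gcgccggcccAAGATGGCGtggtc
Mrps27, chr13:99344790-99344818, plus strand: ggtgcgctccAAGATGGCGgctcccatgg
Mrpl36, chr13:73330968-73330996, plus strand: cgtgaccttaCGCCATCTTtcttcctggc
Mrps11, chr7:78783013-78783041, plus strand: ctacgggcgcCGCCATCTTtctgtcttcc
Of these 8 genes, 5 had differences above 0 and 3 below, from Mrpl42 at 1.10 to Mrpl36 at -0.58. Mrpl35 was at 18.1 FPKM in B16 against 24.4 FPKM in B16/BL6, and Mrpl37 at 46.1 and 48.7 FPKM. Genes with the letters thus lay on both sides of 0, and Mrpl38, with the lowest difference, had no region to search.

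The rest of the translation machinery of mitochondria gave a mixed picture. Ribosomal proteins whose symbols fall outside the rule numbered 7, with a median difference of 0.097 (-0.071 on a TPM scale) and 4 above 0. Among them Chchd1, a small-subunit protein, was at 141 FPKM in B16 against 68.1 FPKM in B16/BL6, a difference of -1.04, past 2-fold lower. Mrp63, a large-subunit protein, was at 14.6 FPKM in B16 against 22.0 FPKM in B16/BL6, a difference of 0.56. The others differed by less than 0.21: Dap3, a GTP-binding protein of the small-subunit head, Ptcd3, Aurkaip1, Gadd45gip1, and Ict1, a peptidyl-tRNA hydrolase built into the large subunit. Dap3 was at 18.5 FPKM in B16 against 16.9 FPKM in B16/BL6, Ptcd3 at 47.6 and 54.8 FPKM, and Ict1 at 79.7 and 71.6 FPKM. Aurkaip1 was at 62.0 and 71.0 FPKM, and Gadd45gip1 at 39.4 and 42.2 FPKM.

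The 12 translation factors had a median difference of 0.021, with 6 above 0 and 1 past 1.5-fold. The median was -0.14 on a TPM scale and -0.0059 centred by chromosome. That gene, Gfm2, the factor that splits the ribosome after termination, was at 13.7 FPKM in B16 against 7.85 FPKM in B16/BL6, a difference of -0.73. Oxa1l, which inserts the new proteins into the inner membrane, was at 28.1 and 36.9 FPKM, a difference of 0.38. Mtrf1, of the release-factor family, was at 5.91 FPKM in B16 against 7.24 FPKM in B16/BL6, a difference of 0.25.

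Of 25 measured genes for assembly factors and enzymes that modify the ribosomal RNAs, 4 (16%) had a difference above 0, beside 50.6% of all genes. The median difference was -0.13, or -0.069 centred by chromosome with 7 above 0, and the summed level was 378 FPKM in B16 against 337 FPKM in B16/BL6. Most differences were small, and some were within 0.001 of 0: 1 gene was past 1.5-fold lower and 1 past 1.5-fold higher. Rbfa, a late assembly factor of the small subunit, was at 35.2 FPKM in B16 against 18.8 FPKM in B16/BL6, a difference of -0.87. Mterfd1, needed for large-subunit assembly, was at 18.1 and 12.04 FPKM, a difference of -0.55. Rpusd3, of the pseudouridine synthase family, went the other way, at 5.38 FPKM in B16 against 10.1 FPKM in B16/BL6, a difference of 0.79.

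For the transcription and upkeep of mitochondrial DNA and RNA, the median difference was -0.15 over 11 genes, with 5 above 0. It was -0.31 on a TPM scale and -0.23 centred by chromosome, with 3 above 0 each time. Polg2, the accessory subunit of the mitochondrial DNA polymerase, was at 3.46 FPKM in B16 against 1.74 FPKM in B16/BL6, a difference of -0.70. Lrpprc, which stabilises mitochondrial mRNAs, was at 31.2 and 19.2 FPKM, a difference of -0.67. Polrmt, the mitochondrial RNA polymerase, was at 9.58 FPKM in B16 against 15.1 FPKM in B16/BL6, a difference of 0.61. It lies on chromosome 10, where the median of all genes was 0.41. The polymerase and the mRNA-binding protein thus lay on opposite sides of 0.

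Among 11 nuclear regulators of mitochondrial genes, 4 were above 0 and the median difference was -0.097. Centred by chromosome, 6 were above 0 and the median turned to 0.012. Ppargc1a, the coactivator PGC-1 alpha, was at 0.825 FPKM in B16 against 5.18 FPKM in B16/BL6, a difference of 1.76, the only regulator past 1.5-fold. Myc was at 70.7 and 96.6 FPKM, a difference of 0.44, and Esrra, an orphan nuclear receptor, at 25.9 and 18.8 FPKM, a difference of -0.44. Apart from Myc, the factors whose letters were searched above differed less. Nrf1 was at 24.7 FPKM in B16 against 28.4 FPKM in B16/BL6, and Gabpa at 15.3 and 15.0 FPKM. Yy1 was at 52.4 and 45.0 FPKM, and Mitf at 97.05 and 90.66 FPKM.

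Beside these lists stood the cytosolic ribosome and the respiratory chain, some of whose subunits the mitochondrial ribosome makes. The 73 measured cytosolic ribosomal protein genes had a median difference of 0.17, with 57 above 0, and their summed level was 1.33 times higher in B16/BL6. The 74 nuclear genes for respiratory chain and ATP synthase subunits had a median of 0.16, with 56 above 0, and a summed level 1.21 times higher. For the mitochondrial ribosomal protein genes these values were 0.023, 41 of 75 and 1.07. The summed level of all symbols in the files was itself 1.13 times higher in B16/BL6. Transcripts of the 3 sets differed in length, with medians of 835, 764 and 1226 bases respectively, and over other coding genes the median difference was 0.16 below 700 bases and -0.02 above 2500 bases. The part of length in the gap between the sets was not tested.

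Directions of whole lists depended on the scale of the libraries. On the TPM scale, 26 of the 75 mitochondrial ribosomal protein genes were above 0. The median of the cytosolic ribosomal protein genes was then 0.0031 and that of the respiratory chain genes -0.0096. On that scale 7.32% of all genes were at least 1.5-fold higher and 15.7% lower. Measured from the median of all genes, the mitochondrial ribosomal protein genes stood at 0.018 as deposited and 0.013 on the TPM scale, the cytosolic ones at 0.17 and 0.16, and the respiratory chain genes at 0.16 and 0.15. The assembly list stood at -0.13 and -0.14. A change of scale moves all genes by nearly the same amount, so these distances could hardly change and the second scale adds no support. The mitochondrial ribosomal protein genes thus stood close to the median gene of these libraries.

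**Figure D5:**
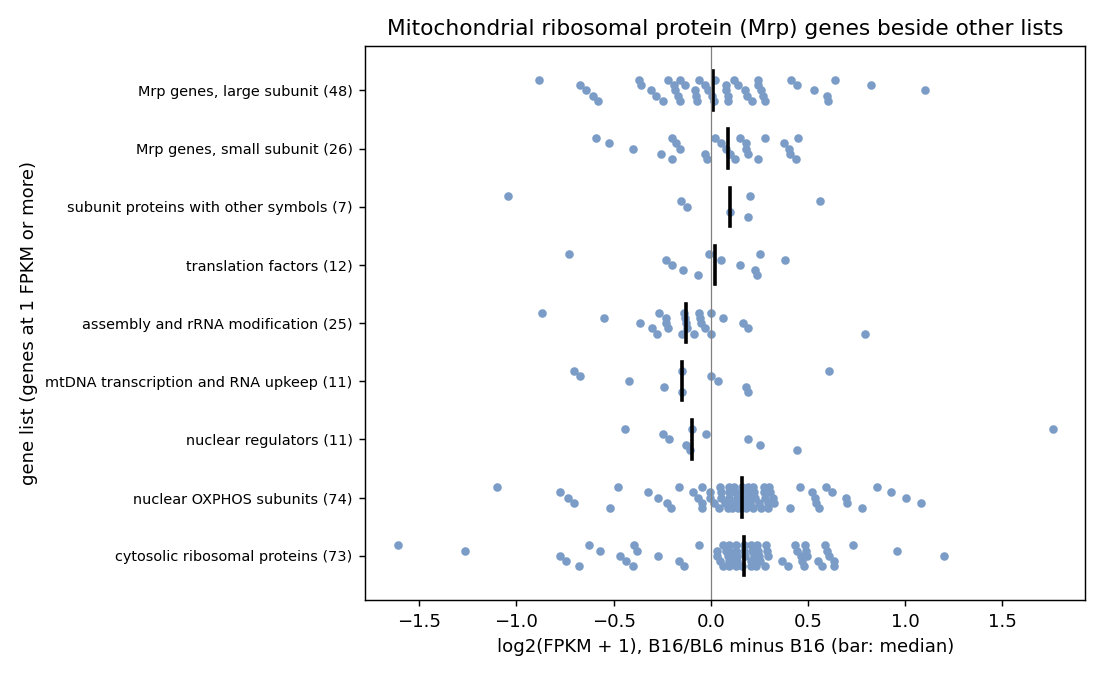
Difference of each gene at 1 FPKM or more, as log2(FPKM + 1) in B16/BL6 minus B16 on the deposited scale (x axis), for 9 gene lists (y axis, number of genes in brackets), from 1 library per line. Points are genes and black bars medians, from -0.15 for mitochondrial DNA transcription and RNA upkeep to 0.17 for cytosolic ribosomal proteins; on a TPM scale the medians of both mitochondrial ribosomal subunits are below 0 (-0.16 and -0.07).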

How the data were processed

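Total RNA of cultured B16 and B16/BL6 cells was made into libraries with a stranded mRNA kit, per the labels' protocols, 1 library per line. The authors deposited FPKM per the file headers, 1 value per symbol. Cufflinks 2.2.1, Bowtie2 2.2.3, TopHat2 2.0.13 and SAMtools 0.1.19 are listed, with mm10 as the build, per the submitters' processing notes. The annotation, counting strand, read totals and handling of reads with several matches were not given in the sources used here. FPKM of short or overlapping transcripts and of genes with near-identical copies depends on these choices.

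Differences were computed from FPKM with a pseudocount of 1, over the 10709 genes that reached 1 FPKM in either library. With 1 library per line, no test was possible, and folds of 2 and 1.5 stand for calls. The approximate depth came from the lowest values, with a window chosen after their spread was seen, and gives no interval or floor. Genes were placed by RefSeq on GRCm38. Transcript length, exon overlap and divergent starts came from GENCODE M21. Near-identical transcripts were searched with blastn 2.17.0+ (at least 90% identity over at least 50% of the length, 13 of 76 genes); 32 genes share exon bases with another gene, 9 of them over 20%. Tables were made with Python 3.11.15 and pandas 2.3.3, and the procedure was tested on simulated data.

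Named genes were all those past 1.5-fold, the 8 highest and 8 lowest differences at 5 FPKM or more, the 6 highest and 6 lowest mean levels, genes listed at 0, and 8 genes whatever their values (Mrpl11, Mrpl12, Mrps12, Mrps18a, Mrps18b, Mrps18c, Mrps30 and Mrps36), with the 3 largest differences of each other list of symbols written by hand (at 1 FPKM or more; all 7 of the ribosomal proteins outside the rule). Cytosolic ribosomal and respiratory chain genes, found by symbol pattern, are given as sets. Genes outside that rule are named for a neighbouring start, an exon overlap, a motif match or a chromosome, or as the factor of a motif. Melanocytic markers that were lower or little changed are named as well. The genes, lists and rules were chosen with earlier results of these data known. Alternatives tried were pseudocounts of 0.1 and 5, no minimum and a minimum of 5 FPKM, TPM and upper-quartile scaling, and centring by all genes or by chromosome. Equal sums over coding genes were added after seeing the data.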

Additional observations from a re-analysis of the deposited data

How the results depend on the processing

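The directions of the 10 genes past 1.5-fold were kept under all 9 alternatives, none of which could turn a difference of that size. List medians near 0 followed the scale of the libraries. On the TPM scale the median differences were -0.145 (all 75 genes), -0.159 (large subunit) and -0.074 (small subunit), and the summed ratio was 0.953. The counts there were 0 past 2-fold higher, 1 past 2-fold lower, 2 past 1.5-fold higher and 7 past 1.5-fold lower. With equal sums over coding genes, an alternative chosen after seeing the data, the medians were -0.150, -0.164 and -0.077, the ratio 0.949 and the counts again 0, 1, 2 and 7. Those scales put the median of all genes at -0.159 and -0.156, and the shares of all genes past 1.5-fold at 7.32% higher and 15.7% lower, and 6.14% and 13.9%. Upper-quartile scaling gave medians of -0.028 (all) and -0.041 (large subunit), with 3 genes past 1.5-fold higher and 6 lower. Over all genes the shares were then 8.15% and 9.73%. A pseudocount of 5 left 3 higher and 2 lower at 1.5-fold. Centring by chromosome left 0 past 2-fold higher, and 2 higher and 1 lower at 1.5-fold. Under a pseudocount of 0.1, upper-quartile scaling and both sum-based scales Mrpl36 passed 1.5-fold lower (-0.59, -0.63, -0.75 and -0.75), and on the sum-based scales Mrps27 did (-0.70 on each). No paired analysis was possible because there was 1 library per line, and for the same reason no library could be left out. Depth limits Mrpl23 and Mrps36, at about 11 fragments or fewer per library.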

Other observations

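Differences were also set out by transcript length. The 75 transcripts ran from 418 to 7300 bases, and 24 were under 1000 bases. Below 700 bases the median difference was 0.28 over 9 mitochondrial ribosomal protein genes and 0.16 over 199 other coding genes, and from 700 to 1000 bases 0.12 over 15 and 0.11 over 386. From 1000 to 1500 bases it was 0.0046 over 23 genes and 0.074 over 938 others, and from 1500 to 2500 bases -0.22 over 10 and 0.020 over 2352. Above 2500 bases it was 0.17 over 18 and -0.02 over 6380. The Spearman correlation of length and difference over the 75 genes was -0.155, given as a description.

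By letters in the start region, the median difference was 0.24 in the 8 genes with AAGATGGCG and 0.022 in those without, and 0.077 in the 23 genes with CCGGAAG and 0.023 in those without. The GC content of the start regions had a median of 58.0% over 67 mitochondrial ribosomal protein genes and 61.7% over 8625 expressed genes.

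Further partners at divergent starts that lay past 1.5-fold, named after their values were seen, were Gga3 beside Mrps7, at 11.1 FPKM in B16 against 6.85 FPKM in B16/BL6, and Eme1 beside Mrpl27, at 10.6 and 6.70 FPKM. Mrps7 had a difference of -0.18 and Mrpl27 one of -0.17. Peo1, the mitochondrial DNA helicase, starts beside Mrpl43 and was at 15.0 FPKM in B16 against 10.9 FPKM in B16/BL6, while Mrpl43 was at 66.8 and 57.2 FPKM. Each of these pairs shares exon bases on opposite strands: 6.13% of those of Mrps7, 7.61% of Mrpl27 and 33.4% of Mrpl43.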
